A study of Mus musculus with 11 samples.

Results

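The genes described here are the 37 that are encoded by the mitochondrial genome, taken as every row placed on chrM among the 46983 rows of the deposited gene count table. They comprise 13 protein-coding genes, 2 ribosomal RNA genes and 22 transfer RNA genes. The deposited RPKM table, with 13526 rows, holds 0 of them. RNA was sequenced from the aortic valve of wild type mice (Mus musculus), 1 mouse per library, taken 48 hours after an operation. In injured mice a wire was used to strip endothelium from the valve in vivo, and sham mice had the control operation. Age was 3 to 4 months for young and 16 to 18 months for aging mice. The 11 libraries are 3 of young sham valves, 3 of young injured valves, 3 of aging sham valves and 2 of aging injured valves. All mice had an operation, so no group shows an unoperated valve.

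The mitochondrial genome is a small circle that is transcribed from both strands into long precursors, which are cut at the transfer RNAs that lie between the coding genes. Its messenger RNAs encode core subunits of the respiratory chain and ATP synthase, its ribosomal RNAs form the mitochondrial ribosome, and its transfer RNAs serve translation inside the organelle. All other proteins of mitochondria, including the polymerase, the ribosomal proteins and the remaining respiratory subunits, come from nuclear genes. Cardiac muscle is rich in mitochondria, and the leaflets of the aortic valve are attached to tissue that borders on it.

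Total counts ranged from 27124000 to 36353474 per library. Detected genes ranged from 20411 to 22533 in 8 libraries and from 18641 to 19015 in the other 3, which were young sham 1, aging injured 1 and aging injured 2. These 3 carry the 3 highest numbers among the submitters' library codes. The lists of 8 valve fibroblast, 8 endothelial and 6 smooth muscle markers each had 0 members at 0 counts in any library. Of 8 adipocyte markers, Lep and Ucp1 were at 0 in at least 1 library, as were S100a8, Cd3e and Cd79a of 9 leukocyte markers. The 18 cardiomyocyte markers (Myh6, Tnnt2, Actc1 and others), none at 0 in any library, summed to 22128 to 38400 CPM (counts scaled to the library total) in young sham, 10465 to 40272 in young injured, 9035 to 24297 in aging sham and 13454 to 16090 in aging injured libraries.

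Nuclear copies of the mitochondrial genome bear on how these genes can be counted, so the sequences are given before the values. On mm10, 7 annotated genes on chromosome 1 between 24611535 and 24616197 are copies of mitochondrial genes in the reverse orientation: Gm29216 (part of mt-Co1), Gm28661 (mt-Co2), Gm10925 (mt-Atp6), Gm28437 (mt-Co3), Gm28438 (mt-Nd3), Gm10222 (mt-Nd4l) and Gm28439 (part of mt-Nd4). They align to chrM with 0 gaps and with 99.71% to 100% identity. They lie in the order of one continuous stretch, chrM:6390-11042 (4653 bases), in which mt-Co2, mt-Atp8, mt-Atp6, mt-Co3, mt-Nd3 and mt-Nd4l lie whole. The pairs below are windows of 150 bases, the length of 1 read, chosen as those with the most mismatches between gene and copy. The mt-Atp6 window (chrM:7927-8076, plus strand) had 0 mismatches to Gm10925 (chr1:24614502-24614651, minus strand), and the mt-Nd3 window (chrM:9459-9608, plus strand) had 1 mismatch to Gm28438 (chr1:24612970-24613119, minus strand), shown in capitals.
mt-Atp6: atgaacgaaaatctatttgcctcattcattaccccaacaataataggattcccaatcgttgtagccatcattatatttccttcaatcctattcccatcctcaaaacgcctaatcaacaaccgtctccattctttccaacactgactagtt
Gm10925: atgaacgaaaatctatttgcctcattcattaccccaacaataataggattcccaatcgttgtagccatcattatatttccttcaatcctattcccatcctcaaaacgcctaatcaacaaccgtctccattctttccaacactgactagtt
mt-Nd3: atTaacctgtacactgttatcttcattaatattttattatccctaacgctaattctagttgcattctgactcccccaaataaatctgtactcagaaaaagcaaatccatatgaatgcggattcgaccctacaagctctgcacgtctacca
Gm28438: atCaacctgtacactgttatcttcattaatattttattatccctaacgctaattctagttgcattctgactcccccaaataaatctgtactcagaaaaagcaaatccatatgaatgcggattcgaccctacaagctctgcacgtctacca
Of the 7 copies, 5 were identical to the mitochondrial gene in every 150-base window. A read from such a stretch cannot be told apart by sequence from a read of the copy, and how the authors treated reads with more than 1 best position is not given in the sources used here.

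Several mitochondrial genes also overlap each other. The last 43 bases of mt-Atp8 (chrM:7766-7969, plus strand) are the beginning of mt-Atp6, shown in capitals.
mt-Atp8: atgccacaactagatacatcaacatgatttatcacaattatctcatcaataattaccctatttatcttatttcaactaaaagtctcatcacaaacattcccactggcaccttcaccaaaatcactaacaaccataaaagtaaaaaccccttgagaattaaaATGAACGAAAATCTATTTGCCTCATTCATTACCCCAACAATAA
By 7 bases mt-Nd4l overlaps mt-Nd4, and by 14 bases mt-Nd5 overlaps mt-Nd6, which lies on the opposite strand. Whether strand was used in counting is not stated, so values of these overlapping and antisense neighbours are uncertain to that extent.

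Mitochondrially encoded genes took between 5.10% and 13.8% of all counts of a library. The share was 8.90%, 11.8% and 13.8% in the 3 young sham libraries, and 5.68%, 5.72% and 11.1% in the 3 young injured libraries. It was 8.86%, 5.10% and 5.82% in the 3 aging sham libraries, and 8.99% and 7.46% in the 2 aging injured libraries. Young sham 3 and 2 were thus highest, and young injured 3 came next, apart from the other young injured libraries. Young sham 1 lay beside aging injured 1 and aging sham 1, and aging sham 1 stood above the other aging sham libraries.

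The mean share of young valves was 11.5% ± 2.46 (SD, n = 3) after sham surgery and 7.49% ± 3.09 (SD, n = 3) after injury. The mean share of aging valves was 6.59% ± 1.99 (SD, n = 3) after sham surgery and 8.22% ± 1.081 (SD, n = 2) after injury. Between young injured and young sham valves the difference was -4.02 percentage points with overlapping libraries, and it was -5.81 points without young injured 3. Between aging injured and aging sham valves it was 1.63 points, also with overlap, and ran from 0.862 to 2.76 points when 1 library was left out (0.862 without aging injured 1, 0.880 without aging sham 2, 2.76 without aging sham 1). Between aging sham and young sham valves it was -4.91 points; the groups did not overlap, though the nearest libraries stood at 8.86% and 8.90%. Between aging injured and young injured valves it was 0.733 points with overlap, and its sign turned when aging injured 1 (-0.03), young injured 1 (-0.17) or young injured 2 (-0.15) was left out. Counting error was small beside these differences (95% Wilson interval 8.89% to 8.91% for young sham 1) and covers counts only, since reads are not independent molecules. In whole valves, fewer cells of a type and less RNA per cell cannot be told apart.

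**Figure D1:**
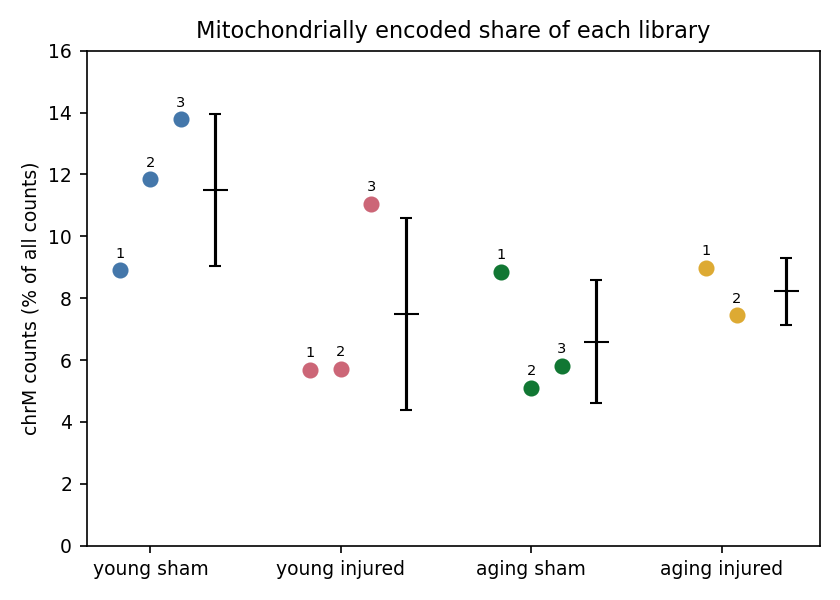
Share of all counts on chrM (y axis, percent) for each library (points, numbered by replicate) in the 4 groups (x axis), with the group mean and SD beside them. Young sham libraries span 8.90% to 13.8% and aging sham libraries 5.10% to 8.86%, while young injured 3 at 11.1% stands apart from the other young injured libraries.

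Within the mitochondrial counts, messenger RNAs made up 96.8% to 98.1%, ribosomal RNAs 1.52% to 2.73% and transfer RNAs 0.233% to 0.485%. The libraries were prepared with an mRNA kit, and how far RNAs without a poly(A) tail were captured was not tested. Subunits of complex I, the NADH dehydrogenase (7 genes), took 41.4% to 43.1%, those of complex IV, the cytochrome c oxidase (3 genes), 34.3% to 36.6%, and mt-Cytb, the cytochrome b of complex III, 17.3% to 20.2%. The 2 ATP synthase subunits of complex V took 0.233% to 1.98%. The shares of complexes I, III and IV were nearly level across libraries, and that of complex V was not.

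A small set of genes carried nearly all of the counts. The 6 most counted messenger RNAs took 93.9% to 97.5% of the mitochondrial counts of a library. Of these, mt-Co1, the catalytic subunit of cytochrome c oxidase, took 34.1% to 36.0%. The share of mt-Cytb is given above, and the complex I subunits mt-Nd5, mt-Nd1, mt-Nd2 and mt-Nd4 took 12.6% to 14.5%, 11.0% to 13.5%, 9.01% to 10.4% and 5.99% to 7.13%. For each of these 6 genes the highest library's share was 1.05 to 1.23 times the lowest library's.

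Per kb of gene length, the median level over libraries was 19820 CPM per kb for mt-Co1, 14186 for mt-Cytb, 10763 for mt-Nd1, 8099 for mt-Nd2, 6388 for mt-Nd5 and 4367 for mt-Nd4. The 6 messenger RNAs that lie whole inside the stretch copied on chromosome 1 were far lower on this scale. Those medians were 246 CPM per kb for mt-Co2 and 232 for mt-Co3, the other cytochrome c oxidase subunits, 448 for mt-Atp8 and 258 for mt-Atp6, the ATP synthase subunits, and 299 for mt-Nd4l and 66.6 for mt-Nd3, which are small complex I subunits. The 2 sets did not overlap in their medians: 67 to 448 CPM per kb inside the stretch, 4367 to 19820 for the 6 others of the same strand. The remaining messenger RNA, mt-Nd6, is the only one encoded on the light strand, lies outside the stretch and had a median of 156 CPM per kb.

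The share of a gene's sequence that also occurs in a nuclear transcript was measured in GENCODE M21 as the percentage of its 100-base windows found there. It was 97.6% to 99.9% for mt-Co2, mt-Atp6, mt-Co3, mt-Nd3 and mt-Nd4l, 60.8% for mt-Nd4, 30.8% for mt-Co1 and 3.19% for mt-Nd2. It was 0 for mt-Nd1, mt-Nd5, mt-Nd6, mt-Cytb, both ribosomal RNAs and mt-Atp8, although mt-Atp8 lies inside the copied stretch between annotated copies. Some of the shared windows lay in genes on chromosome 2, which also had counts. Gm13339 shared 30 windows with mt-Nd2 and had 19 to 285 counts. Gm13340 shared 80 with mt-Co1 (390 to 2092 counts), and Gm13341 shared 88 with mt-Co2 (27 to 84 counts). Medians of mt-Co2, mt-Atp6, mt-Co3, mt-Nd3 and mt-Nd4l, with the highest percentages, were 66.6 to 299 CPM per kb, and that of mt-Nd4 was 4367. Genes with 0 shared windows ran from 156 CPM per kb for mt-Nd6 to 14186 for mt-Cytb. Whether shared sequence lowered the counts was not tested.

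**Figure D2:**
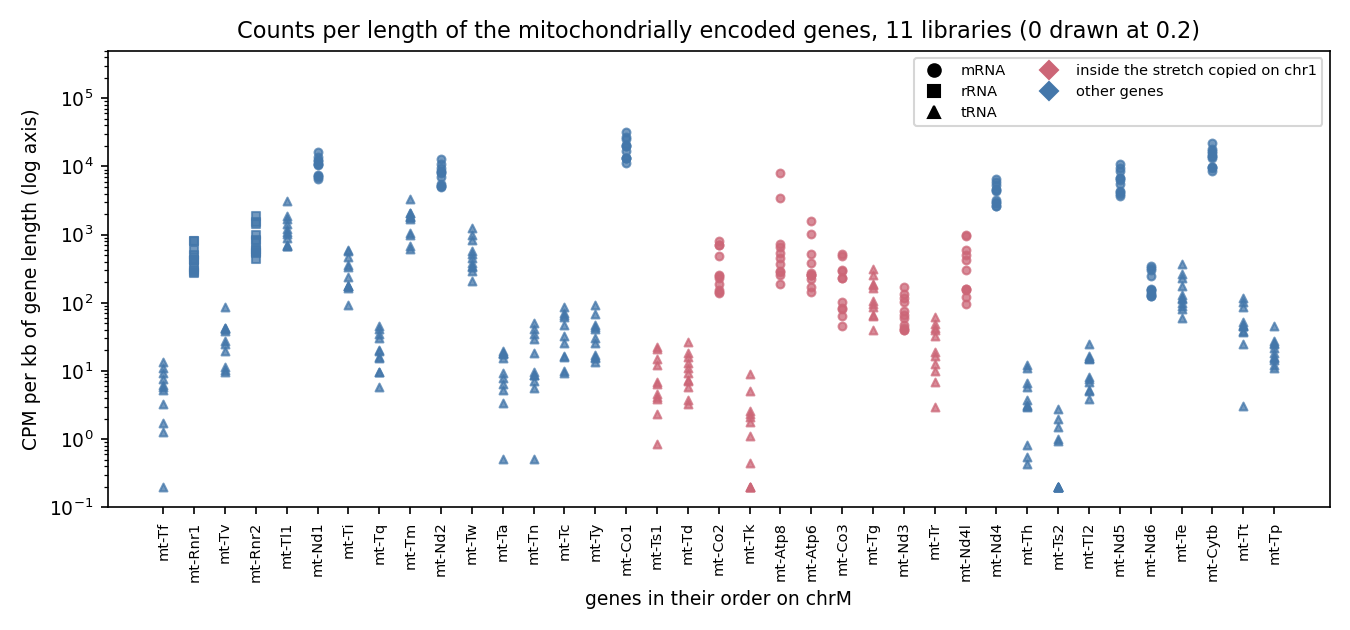
CPM per kb of gene length (y axis, log scale, 0 drawn at 0.2) for the 37 genes in their order on chrM (x axis), with 1 point per library. Genes inside the stretch copied on chromosome 1 are red; its messenger RNAs have medians of 67 to 448 CPM per kb, against 4367 to 19820 for the 6 most counted messenger RNAs.

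The 7 copies on chromosome 1 themselves had counts. Together they took 0.0158% to 0.0840% of all counts, and their counts ranged over libraries from 1216 to 12840 for Gm10925 and from 36 to 231 for Gm28438. The chrM gene had 1.02 to 5.08 times the counts of its copy for mt-Atp6, 1.09 to 4.89 times for mt-Nd4l, 2.41 to 5.54 times for mt-Co2, 1.73 to 12.9 times for mt-Co3 and 6.40 to 16.1 times for mt-Nd3. For these genes the counts on chrM were thus 1.02 to 16.1 times those on chromosome 1 although the sequences match. Values of these members and of their copies are reported as uncertain.

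Messenger RNAs inside the stretch varied more between libraries, within the mitochondrial counts, than the 6 most counted ones. The highest share over the lowest was 2.33 to 21.6 for the 6 messenger RNAs inside. Of the transfer RNAs with counts in every library, it was 4.44 to 16.9 for those inside and 2.29 to 66.4 for those outside. The share of mt-Atp8 was 1.39% in young sham 2 and 0.635% in young injured 3, from 55900 and 23292 counts, and 0.0644% to 0.231% in the other 9 libraries. The share of mt-Atp6, which overlaps it, was 0.980% in young injured 3 and 0.591% in young sham 2, against 0.158% to 0.405% elsewhere. The same pair of libraries was therefore highest for both ATP synthase subunits, and these libraries belong to different groups. In contrast, mt-Nd4l was highest in aging sham 1 (0.332%) and mt-Co3 in young sham 1 (0.451%), so no single library led for all 6 genes.

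**Figure D3:**
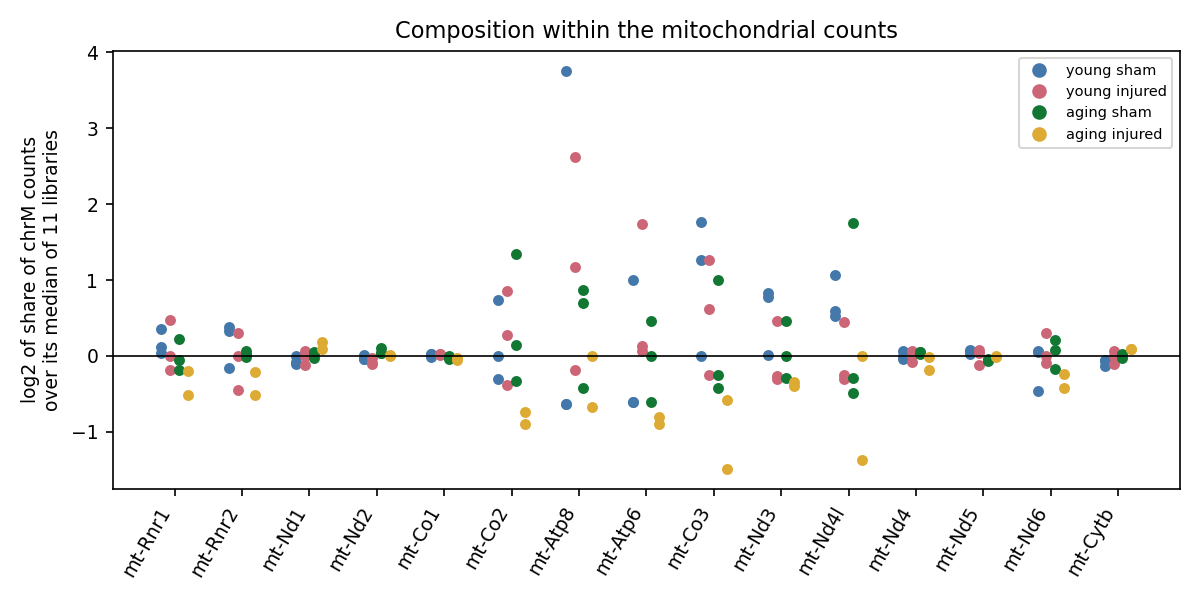
Log2 of each gene's share of the mitochondrial counts over its median across the 11 libraries (y axis), for the 13 messenger RNAs and 2 ribosomal RNAs in chrM order (x axis), colored by group. The 6 most counted messenger RNAs lie close to 0 in all libraries, and the points spread for mt-Co2 to mt-Nd4l, with young sham 2 highest for mt-Atp8.

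The 12S ribosomal RNA mt-Rnr1 took 0.362% to 0.720% of the mitochondrial counts and the 16S ribosomal RNA mt-Rnr2 took 1.16% to 2.16%. Their median levels were 424 and 813 CPM per kb, below those of the 6 most counted messenger RNAs on the same scale. The mt-Rnr2 to mt-Rnr1 ratio of counts in young valves was 3.26 ± 0.535 (SD, n = 3) after sham surgery and 2.97 ± 0.867 (SD, n = 3) after injury. In aging valves it was 3.30 ± 0.516 (SD, n = 3) and 3.19 ± 0.0191 (SD, n = 2).

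Transfer RNA genes are 59 to 75 bases long, shorter than a read, so a read of a transfer RNA and a read of a longer precursor across it cannot be told apart in these counts. Their medians ran from 0 to 1826 CPM per kb. The highest were mt-Tm, which carries methionine, and mt-Tl1, which carries leucine. The lowest was mt-Ts2, a serine transfer RNA, with 16 counts over all libraries and 0 in 6 of them. Shown are these 3 extremes and mt-Tq, the glutamine transfer RNA that lies next to mt-Tm on the other strand (mt-Tl1 chrM:2676-2750, mt-Tm chrM:3845-3913 and mt-Ts2 chrM:11613-11671 on the plus strand, mt-Tq chrM:3772-3842 on the minus strand).
mt-Tm: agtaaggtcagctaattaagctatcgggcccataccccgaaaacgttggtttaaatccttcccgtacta
mt-Tl1: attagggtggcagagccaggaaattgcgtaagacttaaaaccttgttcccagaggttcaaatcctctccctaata
mt-Tq: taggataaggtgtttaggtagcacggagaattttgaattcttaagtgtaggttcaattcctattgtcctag
mt-Ts2: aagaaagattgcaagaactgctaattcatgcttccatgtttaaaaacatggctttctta
The medians were 1826 CPM per kb for mt-Tm, 1095 for mt-Tl1 and 19.4 for mt-Tq. Both high genes directly precede an abundant messenger RNA on the same strand, mt-Nd2 after mt-Tm and mt-Nd1 after mt-Tl1. Yet mt-Tl2, which directly precedes the abundant mt-Nd5 on that strand, had a median of 8.26 CPM per kb. The 8 transfer RNA genes of the light strand had medians of 6.44 to 118 CPM per kb, and the 14 of the heavy strand 0 to 1826. In 11 transfer RNA genes at least 1 library had under 10 counts, so their values rest on few counts.

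The 4 ratios examined, between members at different places on the genome, were tested in logs of counts with an exact two-sided permutation test over libraries. Labels were permuted within the other factor, and the 200 assignments limit how small a p can be. None of the 8 tests passed after adjustment. The ratio of mt-Co1 to mt-Rnr2 in young valves was 19.2 ± 4.38 (SD, n = 3) after sham surgery and 22.8 ± 6.11 (SD, n = 3) after injury. In aging valves it was 20.7 ± 0.556 (SD, n = 3) and 26.8 ± 4.24 (SD, n = 2). Its log2 difference for injury was 0.30 (exact permutation p = 0.07, adjusted p = 0.56). The ratio of mt-Nd6 to mt-Nd5, a light strand gene over its heavy strand neighbour, differed by 0.24 in log2 after injury in young and by -0.41 in aging valves, with an average of -0.09 (exact permutation p = 0.62, adjusted p = 0.80). The ratio of mt-Cytb to mt-Nd1, from opposite ends of the heavy strand transcript, was between 1.499 and 1.62 in the 11 libraries.

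The levels were then compared between groups with edgeR's quasi-likelihood test on the deposited counts of all genes, and CPM of single genes are from here on those with library sizes scaled by TMM, the trimmed mean of M values; summed CPM of gene lists stay on the library total. A gene was called, and is said to have risen or fallen, where its fold change was over 2 and its p, adjusted after Benjamini and Hochberg, was under 0.1, as in the design text of the series. Of the 37 genes 36 had enough counts to be tested, mt-Ts2 being left out. Wire injury in young valves came with lower values for nearly all of them, and a higher age in sham valves likewise, but 0 of 36 were called in any comparison.

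In young valves, mt-Co1 had 33416, 42917 and 53015 CPM in sham and 19012, 19274 and 41200 CPM in injured libraries. Young injured 1 and 2 lay below all sham libraries, and young injured 3 lay among them. The same held for mt-Cytb, with 16948, 21361 and 26941 CPM in sham and 10529, 10314 and 20407 CPM in injured libraries. The log2 fold change was -0.70 ± 0.35 (SE) for mt-Co1 and -0.66 ± 0.32 (SE) for mt-Cytb (edgeR adjusted p = 0.584 and 0.571). The other abundant messenger RNAs, mt-Nd1, mt-Nd2, mt-Nd4 and mt-Nd5, had log2 fold changes of -0.68, -0.77, -0.71 and -0.75, and the ribosomal RNAs mt-Rnr1 and mt-Rnr2 -0.80 and -0.87. The light strand messenger RNA mt-Nd6 had 84.3, 161 and 192 CPM in sham and 61.96, 67.7 and 177 CPM in injured libraries, with the same library apart. Its log2 fold change of -0.51 stood at 0.012 with the cardiomyocyte markers as a covariate.

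The smallest adjusted p after injury in young valves belonged to mt-Nd3. It had 48.3, 61.8 and 44 CPM in sham and 12.97, 21.99 and 27.5 CPM in injured libraries, which did not overlap. Its log2 fold change was -1.30 ± 0.38 (SE) (edgeR adjusted p = 0.229). The 6 messenger RNAs inside the copied stretch, mt-Nd3 among them, ranged from -1.36 to 0.30. Values of mt-Co3 were 419, 394 and 197 CPM in sham and 59.4, 172 and 236 CPM in injured libraries, which overlapped. The nuclear copy of mt-Nd3, Gm28438, which matches it but for 1 base, had a log2 fold change of -0.89 ± 0.56 (SE) (edgeR adjusted p = 0.696).

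Among transfer RNAs, mt-Tm had 136, 149 and 247 CPM in young sham and 39.1, 68.2 and 123 CPM in young injured libraries, with a log2 fold change of -1.21 ± 0.44 (SE) (edgeR adjusted p = 0.397). The glycine transfer RNA mt-Tg, inside the copied stretch, had a log2 fold change of -1.37 ± 0.48 (SE) (edgeR adjusted p = 0.371). In both genes all injured libraries lay below all sham libraries.

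Over all 36 genes tested the median log2 fold change after injury in young valves was -0.88, against 0.01 over all 19366 genes tested, and 35 of the 36 were below 0. The exception was mt-Atp6 at 0.30 ± 0.76 (SE), whose sign turned under 3 other settings and without 2 of the libraries. At an unadjusted p under 0.05 stood 6 of 36, where 9.19% of all genes did. Groups did not overlap, with the injured libraries lower, in 6 of 36, where 5.07% of all genes did so. Of all genes 0.418% were called in this comparison. Members share a transcript, so their counts and medians are not independent of each other.

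The calls in this comparison depended on young injured 3. Without it, 13 members fell: mt-Rnr1, mt-Rnr2, mt-Nd1, mt-Nd2, mt-Nd3, mt-Nd4, mt-Nd5, mt-Co1, mt-Cytb, mt-Tm, mt-Ti, mt-Tw and mt-Tc, with log2 fold changes of -2.66 to -1.06 and edgeR adjusted p of 0.0689 to 0.0974. Of all genes 2.33% were called without this library. Its cardiomyocyte marker sum was 40272 CPM, the highest of the 11 libraries, against 10773 and 10465 CPM in the other young injured libraries. The median of the members was -1.48 without it and -0.55 without young injured 1. With the cardiomyocyte markers as a covariate the median was -0.37 and 0 were called. The valve fibroblast markers summed to 15009 to 19190 CPM in young sham and 21702 to 29312 CPM in young injured libraries, and their part in the result was not tested. With all 11 libraries 1 of these 8 markers was called, where 0.418% of all genes were. It was Col3a1, with a log2 fold change of 1.48 ± 0.17 (SE) (edgeR adjusted p = 0.00656). Of the 8 markers 6 were above 0 and 2 below.

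In aging valves, the log2 fold changes of the abundant messenger RNAs after injury were above 0 and none passed the test. Values of mt-Co1 were 31342, 16634 and 19524 CPM in sham and 30507 and 26179 CPM in injured libraries, within the range of the sham libraries. The log2 fold change was 0.33 ± 0.38 (SE) for mt-Co1, 0.45 ± 0.35 (SE) for mt-Cytb and 0.49 ± 0.33 (SE) for mt-Nd1 (edgeR adjusted p = 0.879, 0.784 and 0.744). All 6 abundant messenger RNAs had values of 0.23 to 0.49, and all 6 inside the copied stretch had values of -1.21 to -0.18.

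Over the 36 members the median after injury in aging valves was 0.01 and 18 were above 0. It ran from -0.25 without aging injured 1 to 0.47 without aging sham 1. The proline transfer RNA mt-Tp, on the light strand, had 0.967, 0.709 and 0.991 CPM in sham and 1.81 and 3.07 CPM in injured libraries, with a log2 fold change of 1.45 ± 0.49 (SE) (edgeR adjusted p = 0.426). Injured libraries lay above all sham libraries in mt-Tp and mt-Tm and below them in mt-Tf, thus 2 higher, where 11.1% of all genes were, and 1 lower, where 16.7% were. The place of mt-Tf rests on few counts, 33, 12 and 6 in aging sham and 0 and 3 in aging injured libraries. Of all genes 0% were called here, and 8.83% had an unadjusted p under 0.05, among them 2 members.

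**Figure D4:**
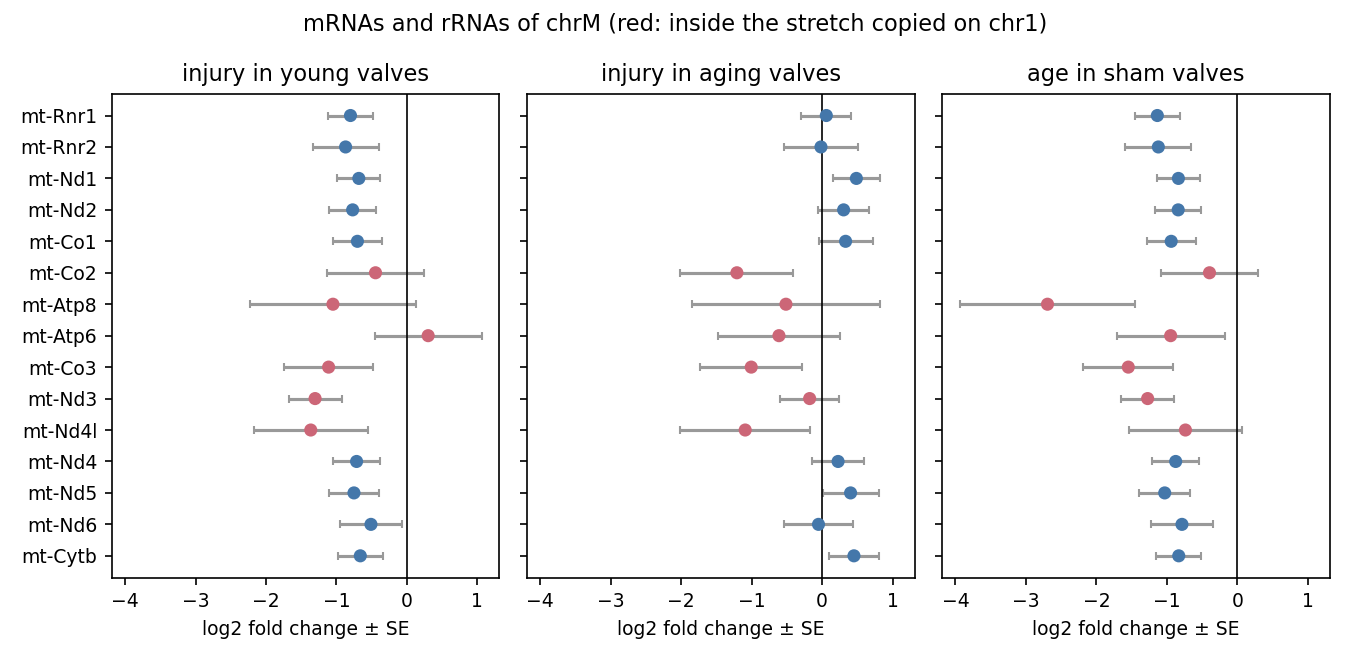
Log2 fold change with SE (x axis) of the 13 messenger RNAs and 2 ribosomal RNAs (y axis) in 3 comparisons, from edgeR; red marks genes inside the stretch copied on chromosome 1. For injury in young valves and age in sham valves the abundant messenger RNAs cluster between -1.03 and -0.66, and for injury in aging valves between 0.23 and 0.49.

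Between aging and young sham valves, values were lower in aging valves for every member tested. For mt-Co1 the libraries were 33416, 42917 and 53015 CPM in young and 31342, 16634 and 19524 CPM in aging sham valves, which did not overlap. For mt-Rnr1 they were 494, 813 and 833 CPM in young and 404, 292 and 278 CPM in aging sham valves, again without overlap. The log2 fold change was -0.94 ± 0.35 (SE) for mt-Co1 and -1.14 ± 0.32 (SE) for mt-Rnr1, which had the smallest adjusted p of the members (edgeR adjusted p = 0.483 and 0.375). In both genes aging sham 1 came closest to the young libraries.

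Other members showed similar sizes. The log2 fold change for age in sham valves was -1.03 for mt-Nd5, -0.84 for mt-Nd1, -0.83 for mt-Cytb and -1.12 for mt-Rnr2. For mt-Nd3, with 35.99, 14.3 and 13.5 CPM in aging sham valves against the young sham values above, it was -1.27 ± 0.38 (SE) (edgeR adjusted p = 0.387).

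The median over the 36 members was -0.98 for age in sham valves, against 0.02 over all genes, and 36 of 36 were below 0. Aging libraries lay below all young libraries in 17 members, namely 6 messenger RNAs, mt-Rnr1 and 10 transfer RNAs, where 9.08% of all genes did so. An unadjusted p under 0.05 was reached by 16 of 36, including all 6 abundant messenger RNAs, where 9.19% of all genes reached it. Of all genes 0.0258% were called, and 0 members. The 2 comparisons with lower values, injury in young and age in sham valves, share the 3 young sham libraries, whose mitochondrial shares ranked 1, 2 and 5 of 11. The 6 smooth muscle markers, of which 0 were called and 5 had log2 fold changes above 0, had sums of 7639 to 17277 CPM in young sham and 20350 to 24676 CPM in aging sham libraries, and their part in the result was not tested. With the cardiomyocyte markers as a covariate the median for age in sham valves was -0.23, and without aging sham 1 it was -1.56.

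Between aging and young injured valves the median was -0.27, with 14 of 36 above 0. The median turned to 0.65 with a term for the 3 libraries with the fewest detected genes. Both aging injured libraries are among these, so the term rests on young sham 1 against the other young sham libraries. Few detected genes and the aging injured group cannot be told apart by it. The median over the members was 0.33 without young injured 3 and 0.061 with the cardiomyocyte markers as a covariate. The log2 fold change of mt-Co1 was 0.10 ± 0.38 (SE), and it was below 0 without young injured 1, young injured 2 or aging injured 1 (-0.093, -0.076 and -0.020). Libraries did not overlap in mt-Tp and mt-Tm, higher in aging (9.89% of all genes were), and in mt-Tf and mt-Atp6, lower in aging (14.5% were). For mt-Tf this rests on 4, 25 and 14 counts in young injured and 0 and 3 in aging injured libraries. Of all genes 0.062% were called and 12.5% had an unadjusted p under 0.05, the latter with 2 members. The threonine transfer RNA mt-Tt, which had 3.16 and 0.205 CPM in aging injured 1 and 2, fell when aging injured 1 was left out, with a log2 fold change of -3.84 that rests on 1 aging injured library and 7 counts, in a fit that takes its spread from the other groups. Of all genes 2.07% were called there. Without that library mt-Tt also fell for injury in aging valves and for injury averaged over age, where 1.26% and 1.37% of all genes were called. With the cardiomyocyte markers as a covariate mt-Tm rose with age in injured valves, where 0.17% of all genes were called.

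The interaction of injury and age, the log2 fold change in aging minus that in young valves, had a median of 0.91 over the members with 31 of 36 above 0. This median was 0.47 with the cardiomyocyte markers as a covariate, 1.80 with the term for few detected genes and 1.49 without young injured 3. It was 1.17 ± 0.45 (SE) for mt-Nd1 and 1.11 ± 0.47 (SE) for mt-Cytb (edgeR adjusted p = 0.586 and 0.608). An unadjusted p under 0.05 was found in 5 members, where 7.86% of all genes had one, and 0% of all genes were called. For injury averaged over both ages the median was -0.44, and it was -0.026 with the term for few detected genes, -0.21 with the covariate, -0.86 without young injured 3, -0.26 without young injured 1 and -0.17 without aging sham 1. There 0 members and 0.594% of all genes were called, and 3 members had an unadjusted p under 0.05, where 11.5% of all genes had one.

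By other tools the count of called members was small as well. With limma-voom it was 0 in all 6 comparisons. With DESeq2, mt-Nd3 fell after injury in young valves, mt-Tp rose after injury in aging valves and in the interaction, and mt-Rnr1 and mt-Nd3 fell with age in sham valves. Of all genes DESeq2 called 1.57% for injury in young valves, 1.81% for injury in aging valves, 1.05% for age in sham valves and 0.899% for the interaction.

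Nuclear genes that work with the mitochondrial genome were taken as lists. The 24 nuclear partner subunits of complexes I, III, IV and V summed to 5297, 7012 and 8020 CPM in young sham and 3569, 3905 and 7760 CPM in young injured libraries. They summed to 5477, 3617 and 3636 CPM in aging sham and 4635 and 4536 CPM in aging injured libraries. The ratio of mitochondrial messenger RNA to these subunits was 13.7 to 19.0, while the mitochondrial share itself ran from 5.10% to 13.8%. By group this ratio was 16.5 ± 0.140 (SD, n = 3), 14.6 ± 0.930 (SD, n = 3), 15.0 ± 1.13 (SD, n = 3) and 17.5 ± 1.99 (SD, n = 2) in the order of young sham and injured, then aging sham and injured valves. The ratio to the 18 cardiomyocyte markers ran from 2.67 in young injured 3 to 5.50 in aging sham 2. In the same order of groups it was 3.70 ± 0.227 (SD, n = 3), 4.39 ± 1.49 (SD, n = 3), 4.70 ± 1.02 (SD, n = 3) and 5.45 ± 0.0150 (SD, n = 2).

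Of these 24 subunits 0 were called in any comparison. After injury in young valves 23 were below 0 (median log2 fold change -0.43), and for age in sham valves 23 were below 0 (median -0.75). The ATP synthase subunit Atp5c1 had 247, 324 and 372 CPM in young sham and 234, 157 and 159 CPM in aging sham libraries, with a log2 fold change of -0.78 ± 0.28 (SE) (edgeR adjusted p = 0.462). Cox6a2, the cytochrome c oxidase subunit of heart and skeletal muscle, had a log2 fold change of -1.39 ± 0.53 (SE) there (edgeR adjusted p = 0.491). The 4 subunits of complex II, which has no mitochondrially encoded part, had medians of -0.39 after injury in young and -0.63 with age in sham valves, with 0 called.

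**Figure D5:**
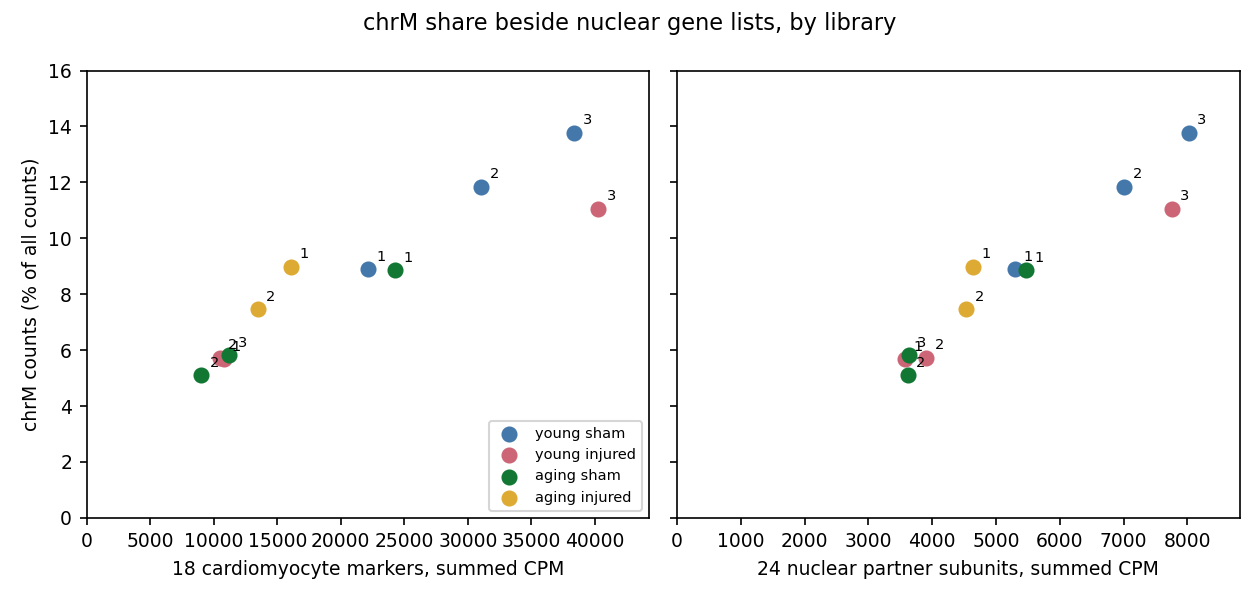
Share of all counts on chrM (y axis, percent) against the summed CPM of 18 cardiomyocyte markers (left) and of 24 nuclear partner subunits (right), with 1 point per library, numbered by replicate and colored by group. Young sham 2 and 3 and young injured 3 stand at the upper right in both panels, and young injured 1 and 2 and aging sham 2 and 3 at the lower left.

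The machinery of mitochondrial transcription, RNA processing and replication differed less between libraries, with sums of 767 to 1021 CPM over 37 genes, of which 0 were called. The mitochondrial RNA polymerase Polrmt had 20.1 to 33.3 CPM and the transcription and packaging factor Tfam 17.2 to 27.3 CPM over the 11 libraries, with groups that overlapped. Ppargc1a, a coactivator of mitochondrial biogenesis, had 33.4, 59.1 and 89.4 CPM in young sham, 15.9, 19.3 and 47.8 CPM in young injured and 32.4, 14.9 and 16.4 CPM in aging sham libraries. Its log2 fold change was -1.13 ± 0.46 (SE) after injury in young and -1.51 ± 0.47 (SE) with age in sham valves (edgeR adjusted p = 0.474 and 0.405). The 3 libraries with the highest Ppargc1a were the 3 with the highest mitochondrial share. The same 3 also had the highest sums of cardiomyocyte markers, of nuclear partner subunits and of this machinery list.

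In the other comparisons further genes of this list had small p-values, and none was called. Mterf3, a mitochondrial transcription terminator family member, had 24.2, 22.7 and 22.9 CPM in aging sham and 14.7 and 11.9 CPM in aging injured libraries. Its log2 fold change was -0.81 ± 0.15 (SE) after injury in aging valves and -0.84 ± 0.15 (SE) with age in injured valves (edgeR adjusted p = 0.258 and 0.105). Both aging injured libraries are among the 3 with few detected genes, so the part of this in the result cannot be told apart from the group. Hsd17b10, a subunit of the mitochondrial RNase P that cuts transfer RNAs from precursors, had a log2 fold change of -0.51 ± 0.14 (SE) with age in sham valves (edgeR adjusted p = 0.358). The mitochondrial genome maintenance exonuclease Mgme1 had -0.64 ± 0.20 (SE) after injury in aging valves (edgeR adjusted p = 0.399).

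Genes of the mitochondrial stress response, 17 in number with 16 tested, had medians of log2 fold change of 0.11 after injury in young valves and 0.00 in aging valves, with 0 called. In young valves 9 of the 16 were above 0 and 7 below, and in aging valves 8 were above and 8 below. The serine synthesis enzyme Psat1 had 8.005, 9.73 and 5.76 CPM in young sham and 13.9, 22.8 and 15.9 CPM in young injured libraries, without overlap. Its log2 fold change was 1.16 ± 0.26 (SE) (edgeR adjusted p = 0.119). The asparagine synthetase Asns had 0.98 ± 0.34 (SE) in young and 0.95 ± 0.38 (SE) in aging valves (edgeR adjusted p = 0.372 and 0.496). Both genes are also known to respond to shortage of amino acids. From the same list, Phgdh had 6.26, 8.56 and 5.44 CPM in young sham and 9.97, 12.3 and 8.14 CPM in young injured libraries. Hspe1 had 71.1, 45.7 and 37.4 CPM in young sham and 36.8, 40.3 and 38.9 CPM in young injured libraries. In Phgdh and in Hspe1 these groups overlapped.

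Among the nuclear genes whose log2 CPM followed mt-Co1 most closely over the 11 libraries, of 19330 ranked, were Naca (Pearson r = 0.994), Mylk3 (0.988), Mrpl39 (0.983) and Myh6 (0.981). Myh6 is the cardiac myosin heavy chain and Mylk3 the cardiac myosin light chain kinase, Mrpl39 belongs to the mitochondrial ribosome, and Naca to the nascent polypeptide-associated complex, with a muscle isoform. Myh6 had 6598, 10332 and 11676 CPM in young sham and 3572, 2865 and 9906 CPM in young injured libraries. It had 7331, 3018 and 3239 CPM in aging sham and 5401 and 4969 CPM in aging injured libraries. These values share library and tissue piece with mt-Co1 and describe likeness in these libraries.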

How the data were processed

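TopHat2 2.1.0 and the build mm10 are named in the submitters' processing notes; the counter, strand setting and annotation were not given in the sources used here. The authors deposited raw counts per gene, used here, and RPKM values for 13526 genes, used only to see which genes they hold; 1 library column matched no sample label and was not used. Per the labels' protocols, libraries were made from 200 ng of total RNA with an mRNA kit and read as 150 nt paired ends. Shares are counts over all counts of a library. Genes passing filterByExpr (minimum count 10; 19366 genes) were tested in edgeR 4.0.16 (R 4.3.3) with TMM scaling, all 11 libraries in 1 fit with 4 group means; the common biological coefficient of variation was 0.377. Adjusted p are Benjamini-Hochberg over all genes tested. SE is the absolute log2 fold change over the square root of F. The script was tested on simulated data. Alternatives used limma 3.58.1 and DESeq2 1.42.0. Copies were aligned with blastn 2.17.0 and sequences read from GENCODE M21 transcripts, in which all 37 genes and the 7 copies have the coordinates of the count table. Each library came from its own mouse. All 37 genes were described. Genes of a list were chosen as the up to 4 with the smallest p, plus Polrmt, Tfam and Ppargc1a, and not all of those chosen are printed. Transfer RNAs were named by extremes. The genes mt-Tq, mt-Tg, mt-Tt, mt-Tp and mt-Tf were singled out after their values were seen. A nuclear gene among those most like mt-Co1 is not reported here. Members, lists and tests were chosen with earlier results of these data known. Pairs of libraries of the same group differed by a chi-square per degree of freedom of 21.4 to 236.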

Additional observations from a re-analysis of the deposited data

Results flagged for a closer look

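In 2 transfer RNA genes every injured library lay below the sham libraries in young valves and above them in aging valves. Taken singly, the lower place in young valves was held by 5.07% of all genes and the higher place in aging valves by 11.1%. The share of all genes with both was not counted, so how unusual the pattern is was not tested. For mt-Tm the interaction of injury and age was a log2 difference of 1.99 ± 0.64 (SE) (edgeR adjusted p = 0.519). For mt-Tp it was 2.18 ± 0.67 (SE) (edgeR adjusted p = 0.501), and DESeq2 called it. Both aging injured libraries are among the 3 with the fewest detected genes, so the part of that in these values cannot be told apart from the group. The levels of mt-Tp were 0.709 to 3.07 CPM, from 23 to 105 counts per library.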

How the results depend on the processing

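The count of called members was 0 in edgeR's main test of all 6 comparisons. Of 58 counts under other settings, 53 also gave 0; DESeq2 gave 1 for injury in young valves, 1 for injury in aging valves, 2 for age in sham valves and 1 for the interaction, and the cardiomyocyte covariate gave 1 (mt-Tm) for age in injured valves. Leaving out 1 library at a time gave 0 to 13 for injury in young valves (13 without young injured 3), 0 to 1 for injury in aging valves, age in injured valves and injury averaged over age (1, mt-Tt, without aging injured 1), and 0 for age in sham valves and for the interaction. Adding the counts of the chromosome 1 copies to their genes, chosen after seeing the data, gave 0 throughout. With the replicate number as a block 0 members were called, with medians of -0.97, 0.01 and -0.995 for injury in young, injury in aging and age in sham valves. The numbers were not taken as pairs in the main test. Of 15 same-numbered pairs, 1 had a correlation of deviations over 0.1 (range -0.13 to 0.25). Deviations were taken from means of only 2 or 3 libraries, so this check cannot exclude a pairing. A term for the 3 libraries with few detected genes moved the median of the members in several comparisons. It was 0.95 for injury in aging valves, 0.65 for age in injured valves, 1.80 for the interaction and -0.026 for injury averaged over age. Both aging injured libraries are among these 3, so the term rests on young sham 1 alone and carries its offset to them. For injury in young and age in sham valves the medians were -1.097 and -1.26 with the term. They were -1.097 and -1.26 without young sham 1. Few detected genes and the aging injured group thus cannot be told apart.

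The share difference for age in injured valves ran from -0.17 to 2.52 points when 1 library was left out. Without the 3 libraries with few detected genes the log2 ratio differences turned sign for mt-Rnr2 to mt-Rnr1 with age (-0.0832), mt-Nd6 to mt-Nd5 with injury (0.0859) and with age (0.10), and mt-Cytb to mt-Nd1 with injury (0.0079). Leaving out 1 library gave ranges that included a change of sign for mt-Cytb to mt-Nd1 with injury (-0.028 to 0.017) and with age (-0.045 to 0.00073) and for mt-Rnr2 to mt-Rnr1 with age (-0.00098 to 0.19). For injury in young valves mt-Atp6 turned to -0.0571 with limma-voom, -0.10 with the replicate block and -0.049 with the term for few detected genes, and ran from -1.23 to 1.076 without 1 library. Without 1 library mt-Tt ran from -3.84 to 0.084 for age in injured valves and from -3.49 to 0.44 for injury in aging valves, and mt-Co1 from -0.093 to 0.57 for age in injured valves. For injury in young valves mt-Nd6 turned to 0.012 with the cardiomyocyte covariate. The causes of these changes were not tested. The other single-gene log2 fold changes that were recomputed kept their sign under these settings and without 1 library. Some nuclear genes not called in the main test were called otherwise. For injury in young valves Psat1 rose with DESeq2 (DESeq2 adjusted p = 0.00606) and without young injured 3 (edgeR adjusted p = 0.0764). Ppargc1a fell there without young injured 3 (edgeR adjusted p = 0.0733), and with age in sham valves by DESeq2 (DESeq2 adjusted p = 0.0618). For age in injured valves Mterf3 was at -1.0007 without aging injured 1, which leaves 1 aging injured library. The low counts of 11 transfer RNA genes limit what can be seen in them.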
